A study of Mus musculus with 12 samples.

Results

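The regions described here lie in or beside mouse Zfp genes and were listed by the authors as hypomethylated in bone marrow progenitors of Dnmt1 mutant mice. They were chosen by their gene symbol, Zfp followed by a digit, and by an absolute distance to that gene of at most 5 kb in the authors' deposited list. Zfp469 was left out. This gave 166 regions at 71 genes, of 35439 listed regions in all and of 107115 candidate regions in the deposited table of levels. Because the authors selected the list on the same mutant and wild-type samples, the lower mutant level of these regions follows from how they were chosen. Their levels are therefore given as a description, without a test.

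Genomic DNA of lineage-negative (lin-) bone marrow progenitors was sequenced after conversion of unmethylated cytosine, in Dnmt1 mutant and in wild-type mice, both of the BALB/c strain. The mutant genotype reads dnmt1-/- in the labels, whereas the series describes a missense mutation that lowers the function of Dnmt1. Each genotype had 6 libraries, from 3 replicate numbers and 2 library kits, and the deposited table has 1 column for each genotype and replicate number, so n = 3 in each group. Age, pooling and the number of animals are not stated in the labels, so the spread between columns may be technical. Lineage-negative cells are marrow cells depleted of those with markers of mature blood lineages, which enriches stem and progenitor cells. No expression was measured, so the cell type could not be checked against its markers.

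Zfp is the mouse prefix for genes of zinc finger proteins, in which a zinc ion held by cysteines and histidines folds a short stretch of the chain into a finger that contacts DNA or RNA. Many carry a KRAB domain, which recruits the corepressor Trim28 and the histone methyltransferase Setdb1 to transposable elements, and genes of this class stand in clusters on several chromosomes. Others are single transcription factors of development and blood, and the Zfp36 proteins bind messenger RNA. Dnmt1 copies CpG methylation onto the new DNA strand after replication.

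The 5 member regions that reached a promoter window are shown first, since they lie at or close to a RefSeq start. At Zfp872 and Zfp819 this start is at or close to the outermost start of the gene. At Zfp385b, Zfp423 and Zfp385c it lies deep inside the gene, with the middle of the region 114540, 158154 and 41074 bp after the outermost start. A promoter window here spans 250 bases before to 50 bases after a RefSeq gene start (GRCm38.p6, the assembly that mm10 names). Windows were held for 54 of the 71 genes, 72 windows in all. The 5 regions belonged to Zfp385b, Zfp872, Zfp819, Zfp423 and Zfp385c. The windows of 4 genes follow, 5′ to 3′ on the strand of the gene, with each CpG that lies inside the listed region in capitals and everything else in lower case. The position of each window is chr9:22187916-22188215 (plus strand) for Zfp872, chr2:77703223-77703522 (minus strand) for Zfp385b, chr7:43606919-43607218 (plus strand) for Zfp819 and chr8:87804390-87804689 (minus strand) for Zfp423.
Zfp872: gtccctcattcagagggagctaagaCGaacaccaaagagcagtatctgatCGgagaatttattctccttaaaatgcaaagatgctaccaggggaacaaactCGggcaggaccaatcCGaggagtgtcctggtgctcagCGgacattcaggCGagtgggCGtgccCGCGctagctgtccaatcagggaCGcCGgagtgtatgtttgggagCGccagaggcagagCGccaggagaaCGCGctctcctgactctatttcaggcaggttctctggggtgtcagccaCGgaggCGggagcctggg
Zfp385b: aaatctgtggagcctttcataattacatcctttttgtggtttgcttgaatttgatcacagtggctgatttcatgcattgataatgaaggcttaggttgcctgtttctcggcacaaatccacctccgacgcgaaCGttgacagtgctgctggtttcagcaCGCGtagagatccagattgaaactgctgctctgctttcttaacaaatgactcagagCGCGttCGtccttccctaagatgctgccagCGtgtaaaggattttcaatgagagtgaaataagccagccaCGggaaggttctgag
Zfp819: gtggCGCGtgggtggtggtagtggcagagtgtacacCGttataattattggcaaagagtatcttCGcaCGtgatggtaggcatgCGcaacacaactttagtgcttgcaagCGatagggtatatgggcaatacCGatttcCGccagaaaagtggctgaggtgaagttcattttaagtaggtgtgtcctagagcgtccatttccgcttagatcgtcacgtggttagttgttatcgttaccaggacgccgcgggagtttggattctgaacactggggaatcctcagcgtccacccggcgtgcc
Zfp423: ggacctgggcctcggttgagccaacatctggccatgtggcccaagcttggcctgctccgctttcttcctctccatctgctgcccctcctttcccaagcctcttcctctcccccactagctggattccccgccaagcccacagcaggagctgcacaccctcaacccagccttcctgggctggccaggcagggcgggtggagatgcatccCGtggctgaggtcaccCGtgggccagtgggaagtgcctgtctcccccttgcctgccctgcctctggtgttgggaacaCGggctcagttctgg

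The whole Zfp872 window lay inside its region and held 17 CpGs, more than the 13 that the authors counted for the entire region of 1745 bp, so their number does not cover every CpG of the reference. In Zfp385b, 8 of 12 CpGs of the window fell in the region (bases 134 to 300). In Zfp819, a KRAB gene whose protein represses retroelements in embryonic stem cells, 9 of 20 CpGs did (bases 1 to 141). In Zfp423, 3 of the 7 CpGs of the window did (bases 209 to 300). The motif counted was CG, which reads the same on both strands. Windows of member genes held a median of 17.5 CpGs, against 7 over all 32851 windows, and 72.2% of them held 10 or more, against 43.5% of all windows.

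At Zfp872 the methylation level of the region, the deposited fraction in percent, was 37.1%, 39.3% and 40.5% in the 3 mutant columns and 79.9%, 86.1% and 92.1% in the wild-type columns. The mutant columns were within a few points of each other, whereas the wild-type columns were further apart. At Zfp385b the mutant columns had 29.8%, 23.5% and 47.9%, and the wild-type columns 81.7%, 77.5% and 84.5%. Mutant replicate 3 stood above the other mutant columns there, yet far below every wild-type column. The Zfp819 region was nearly free of methylation in mutant cells, with 5.11%, 4.67% and 5.0%, against 29.4%, 39.8% and 26.2% in wild-type cells. A neighbouring region of Zfp819, with its middle 652 bp after the gene start, had 24.6% ± 2.40 in mutant cells and 50.9% ± 1.95 in wild-type cells (SD, n = 3 a group). The Zfp423 region had 45.5% ± 4.22 in mutant cells and 71.9% ± 3.59 in wild-type cells (SD, n = 3 a group). That is the level of the whole region of 1165 bp and 24 CpGs, of which 92 bases with 3 CpGs lay in the window. No level was given for the internal start alone. The Zfp385c region (chromosome 11, 100650909 to 100651871) had 25.9% ± 2.48 in mutant cells and 50.8% ± 5.20 in wild-type cells (SD, n = 3 a group). Of its 962 bp, 33 bases lay in a promoter window and 87 in another, with 2 CpGs in each case.

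The authors' annotation placed 149 of the 166 inside the gene (89.8%, against 86.5% of all listed regions within 5 kb of any gene), 6 upstream and 11 downstream. By RefSeq positions, 9 regions had their middle within 1 kb of the gene start and 45 within 5 kb of it, against 36 within 5 kb of the gene end. The regions within 1 kb of a start included Zfp593, a gene whose yeast counterpart acts in ribosome assembly, with 22.0%, 32.8% and 26.6% in mutant cells and 67.4%, 74.3% and 74.8% in wild-type cells. They also included Zfp783, with 18.9%, 9.67% and 13.2% in mutant cells and 61.2%, 56.0% and 52.3% in wild-type cells. In both genes the mutant and wild-type columns were more than 30 points apart. The gene models of the list and of RefSeq differ at some genes, so a region inside Zfp652 or Zfp579 in the list can lie beyond the RefSeq gene end. The middle of the Zfp579 region lay 5396 bp beyond that end. Members of Zfp652 include regions with their middle 45820, 50664, 63633 and 69044 bp beyond it. By RefSeq positions, 156 of the 166 members lay in a Zfp gene or within 5 kb of it.

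Averaged over the 166 regions, the mutant columns stood at 47.0%, 49.5% and 52.2% and the wild-type columns at 77.3%, 76.4% and 77.2%. These average to 49.6% ± 2.59 in mutant cells and 77.0% ± 0.512 in wild-type cells (SD, n = 3 a group). The median difference, mutant minus wild type, was -25.1 percentage points (quartiles -29.5 and -22.4), between -58.7 and -20.03. The other 26788 listed regions within 5 kb of any gene had 48.3% ± 2.36 in mutant cells and 76.7% ± 0.286 in wild-type cells (SD, n = 3 a group), with a median difference of -26.1 points. So the Zfp regions were much like the rest of the list in level, and their median loss was slightly smaller. All 166 had every mutant column below every wild-type column, which 94.3% of all candidate regions also had. All 166 were lower by limma at an adjusted p under 0.05, as were 93.5% of all candidate regions, and nothing is read from either count.

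Losses of 30 points or more were found in 39 member regions (23.5%), against 31.2% of the other listed regions within 5 kb of a gene. Losses of 40 points or more were found in 14 (8.43%), against 8.71%. The metilene q-value of the authors' list was under 0.05 in 36 member regions (21.7%), against 24.8%. Of the 5 regions at promoter windows, 1 had a metilene q under 0.05, that of Zfp385b. Member regions held a median of 12 CpGs, the same as the others, but 20 or more CpGs in 8.43%, against 15.6%. Their median length was 626 bp, against 723 bp, and their CpG density 1.96 per 100 bp, against 1.80.

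**Figure D1:**
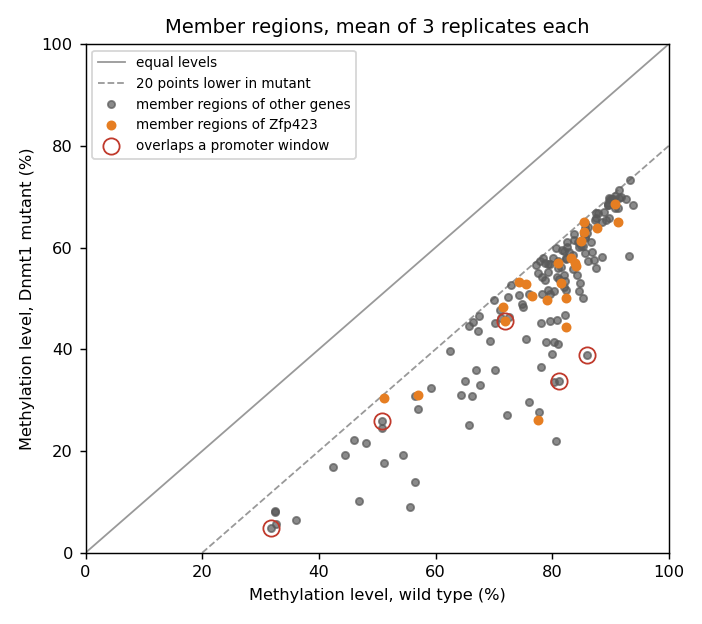
Mean methylation level of each of the 166 member regions in the Dnmt1 mutant (vertical axis, %) and in wild-type cells (horizontal axis, %), with 3 columns a group. Every point lies on or below the dashed line of a 20 point loss, as the selection requires, and the 5 regions that overlap a promoter window (rings) include the region with the lowest mutant level, 4.93% at Zfp819.

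The plot of mutant against wild-type level shows how the loss varied with the starting level. In the 92 regions with a wild-type level of 80% or more, the mean was 59.2% ± 2.82 in mutant cells and 85.6% ± 0.440 in wild-type cells (SD, n = 3 a group). In the 10 regions below 50% in wild-type cells, the mean was 12.4% ± 1.29 in mutant cells and 39.3% ± 1.64 in wild-type cells (SD, n = 3 a group). The median relative change was -74.9% in those 10 regions and -28.7% in the 92, against -32.6% over all members. A region that starts below 50% and passes a 20 point limit must lose a large share of its level, so this order follows in part from the limit. Across the 166 regions, Spearman's rho between wild-type level and relative change was 0.72. The wild-type level enters both quantities, so this is a description only. The number of CpGs had a rho of 0.04 with the difference.

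The mutant columns were less alike than the wild-type columns. The median absolute difference between columns over the 166 regions was 4.78 to 6.24 points among mutant columns and 2.96 to 3.78 points among wild-type columns. Mutant replicate 3 was the highest mutant column in 60.8% of the regions, and mutant replicate 1 the lowest in 57.2%. The other listed regions within 5 kb of a gene had the same order, with 56.97% and 57.0%. The widest spread was at a region of Zfp523 (chromosome 17, 28179717 to 28180155), with 40.1%, 65.2% and 55.7% in mutant cells and 81.6%, 74.3% and 80.6% in wild-type cells. A region upstream of Zfp64, whose human counterpart maintains MLL expression in leukaemia cells, had 35.7%, 47.8% and 59.7% in mutant cells and 75.7%, 71.8% and 65.9% in wild-type cells. The groups of Zfp64 did not overlap, but its replicate 3 columns were 59.7% in mutant cells and 65.9% in wild-type cells. A region of Zfp652 (chromosome 11, 95823540 to 95823851) had 47.7%, 56.0% and 68.3% in mutant cells and 77.4%, 81.9% and 83.4% in wild-type cells. Mutant replicate 3 was the highest mutant column at Zfp64 and Zfp652, and replicate 2 at Zfp523.

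The largest loss was at Zfp839 (chromosome 12, 110855349 to 110855716, mm10, 15 CpGs inside the gene), with 32.1%, 21.4% and 12.6% in mutant cells and 76.8%, 84.4% and 81.0% in wild-type cells. The difference was -58.7 points, and mutant replicate 3 was the lowest mutant column here, as in 22 of the 166 regions. Zfp663 (chromosome 2, 165363629 to 165364330, 18 CpGs) had 8.88%, 8.35% and 9.65% in mutant cells and 56.4%, 51.2% and 59.1% in wild-type cells. Its mutant columns were close together near the bottom of the scale. Zfp579 (chromosome 7, 4986853 to 4988055, 10 CpGs) had 27%, 23.8% and 38.1% in mutant cells and 77.8%, 72.2% and 78.1% in wild-type cells. The 10 largest losses, which also include regions of Zfp423, Zfp536, Zfp385b, Zfp872, Zfp593 and Zfp783, lay between -58.7 and -42.6 points.

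At the other end, the smallest losses inside the limit belonged to Zfp800 (-20.03 points), Zfp750 (-20.1), Zfp740 (-20.1), Zfp408 (-20.4) and Zfp334 (-20.4). Just outside it, candidate regions at Zfp936 and Zfp862-ps lay at the limit itself, and regions at Zfp36l2, Zfp532 and Zfp870 differed by -19.96, -19.9 and -19.9 points. A further 6 candidate regions, at Zfp142, Zfp932, Zfp974, Zfp90 and Zfp516, differed by 20 points or more by the mean of the columns and are in neither deposited list. Zfp408 was the least separated of the 5 smallest, with 42.2%, 50.2% and 56.4% in mutant cells and 84.0%, 68.0% and 57.9% in wild-type cells. Its wild-type columns spread more widely than its mutant columns.

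Among developmental and blood regulators, 8 of a list of 22 genes had member regions, 49 regions with a median difference of -24.4 points. Of all 415 Zfp genes in RefSeq, 70 had a member region, and whether the list differs from that share was not tested. The 8 genes were Zfp423, Zfp536, Zfp710, Zfp827, Zfp217, Zfp219, Zfp516 and Zfp703. Candidate regions lay near 18 of the 22, and all 18 had at least 1 region that limma called lower, from which nothing is read, since 93.5% of all candidate regions were called lower. The other 10 of those 18, among them Zfp521, a factor of blood progenitors, and Zfp335, which T cell maturation needs, had no member region, although Zfp335os, a transcript from the opposite strand of Zfp335, had 1. Among the 10, Zfp90 and Zfp467 have regions beside them listed under other symbols, with differences of -49.0 and -34.5 points.

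Zfp423, a multi-finger factor that binds Ebf1 and commits cells to the fat lineage, had 22 of the 166 regions (13.3%), more than any other gene. Over these, the mutant columns had 50.8%, 51.5% and 54.5% and the wild-type columns 78.7%, 79.0% and 79.5%. The means were 52.3% ± 1.96 in mutant cells and 79.1% ± 0.411 in wild-type cells (SD, n = 3 a group), with a median difference of -25.7 points. In RefSeq the gene spans 300.2 kb, and 62 candidate regions overlapped that span or lay up to 5 kb from it. Of these, limma called 60 lower at an adjusted p under 0.05, 22 were listed, and 0 had a higher mean in mutant cells. Both counts are close to the shares over all candidate regions, 93.5% called lower and 33.1% listed. The largest loss in the gene (chromosome 8, 87690227 to 87690597, 13 CpGs) was in the last part of the gene, with 33.8%, 26.3% and 18.3% in mutant cells and 77.3%, 78.9% and 76.8% in wild-type cells. The difference there was -51.5 points, and the next largest in the gene was -38.1.

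**Figure D2:**
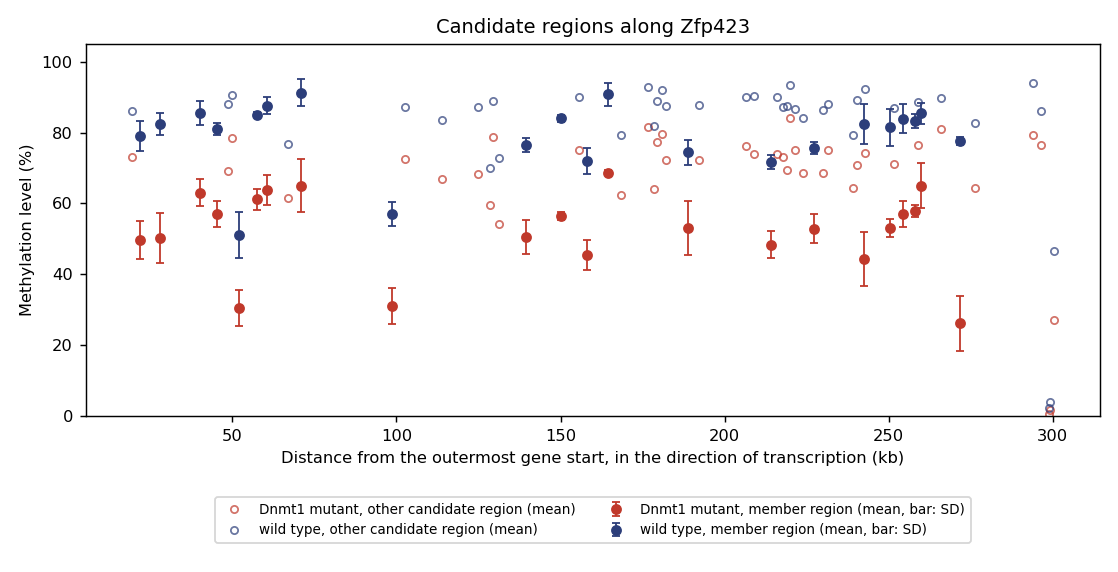
Methylation level (%) of the 62 candidate regions of Zfp423 by distance from the outermost RefSeq gene start (kb), in the Dnmt1 mutant (red) and the wild type (blue). Filled points are the 22 member regions (mean of 3 columns, bar SD) and open points the other candidate regions; members are spread along the gene, and the largest loss, -51.5 points, lies toward its end.

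Zfp536, a repressor of neuronal differentiation, had 10 regions with a median difference of -32.6 points, larger than the -25.1 over all members. Its mutant columns averaged 48.7%, 47.9% and 49.5% and its wild-type columns 82.2%, 82.6% and 81.9%. The strongest of these 10 regions (chromosome 7, 37548998 to 37549305, 17 CpGs) had 33.4%, 26.5% and 23.3% in mutant cells and 75%, 78.4% and 79.8% in wild-type cells. A second region of 26 CpGs (37569107 to 37569977) had the lowest metilene q-value of all members, 4.5e-14, with 35.6%, 26.04% and 39.3% in mutant cells and 81.1%, 84.4% and 75.3% in wild-type cells. All 31 candidate regions near Zfp536 were called lower by limma, as were 93.5% of all candidate regions. Listed regions near Zfp536 under other symbols were not counted among its 10. Of those, the region at 37342601 to 37343355 differed by -55.25 points and that at 37320923 to 37321056 by -50.2. Both losses were larger than at the strongest member region of the gene, and the rest were smaller. Zfp710 had 7 regions with a mean of 51.2% ± 3.88 in mutant cells and 77.0% ± 0.494 in wild-type cells (SD, n = 3 a group). Zfp217, whose human counterpart is amplified in breast cancer, had 46.0%, 57.7% and 60.2% in mutant cells and 85.6%, 84.6% and 82.8% in wild-type cells at the larger loss of its 2 regions. The single region of Zfp703 had 54.9% ± 2.13 in mutant cells and 77.5% ± 1.63 in wild-type cells (SD, n = 3 a group). At the larger loss of Zfp516, a factor of brown fat, the columns had 57.4%, 63.1% and 59.5% in mutant cells and 81.2%, 78.9% and 81.8% in wild-type cells. Zfp827, whose human counterpart recruits the NuRD complex to telomeres, had 3 regions with 54.2% ± 3.85 in mutant cells and 80.8% ± 2.22 in wild-type cells (SD, n = 3 a group).

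The Zfp385 genes had 14 regions between them. Zfp385a, a p53 partner first described in blood cells, had 2 and shared with Zfp651 the highest number of CpGs in a member region, 35. That Zfp385a region (chromosome 15, 103315019 to 103317055) had 47.3%, 50.3% and 54.9% in mutant cells and 76.1%, 75.3% and 76.9% in wild-type cells. Zfp385b had 4 regions with a median difference of -32.9 points, and Zfp385c had 8 with -24.4 points. Of the other regions rich in CpGs, Zfp651 (35 CpGs) had 59.2% ± 1.37 in mutant cells and 82.0% ± 3.56 in wild-type cells (SD, n = 3 a group). Zfp653 (33 CpGs) had 31.0% ± 3.72 in mutant cells and 64.4% ± 2.27 in wild-type cells, and Zfp219 (32 CpGs) 57.4% ± 2.67 in mutant cells and 77.9% ± 2.96 in wild-type cells (SD, n = 3 a group).

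Several genes with a role in blood or in chromatin had few regions each. Zfp683 encodes Hobit, a factor of tissue-resident lymphocytes, and its 3 regions averaged 52.7%, 58.2% and 58.7% in mutant cells and 84.3%, 80.5% and 79.8% in wild-type cells. Zfp366 encodes DC-SCRIPT, a factor of dendritic cells, and its 1 region had 47.8%, 52.0% and 58.0% in mutant cells and 75.4%, 71.6% and 72.0% in wild-type cells. Zfp652, whose human counterpart binds the corepressor CBFA2T3, had 6 regions with the lowest levels among genes with 3 or more, 35.3% ± 3.78 in mutant cells and 62.8% ± 1.32 in wild-type cells (SD, n = 3 a group). These 6 were assigned by the authors' gene model, and they include regions 45820 to 69044 bp beyond the RefSeq gene end. The human counterparts of Zfp532 and Zfp687 sit in 1 chromatin complex. Zfp532 had 5 regions with 38.0% ± 5.50 in mutant cells and 67.6% ± 2.76 in wild-type cells (SD, n = 3 a group). A Zfp687 region had 4.89%, 9.22% and 9.78% in mutant cells and 38.4%, 25.1% and 33.7% in wild-type cells. Zfp473, which acts in histone messenger RNA processing, had 41.4% ± 4.69 in mutant cells and 78.9% ± 3.47 in wild-type cells in 1 region (SD, n = 3 a group).

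**Figure D3:**
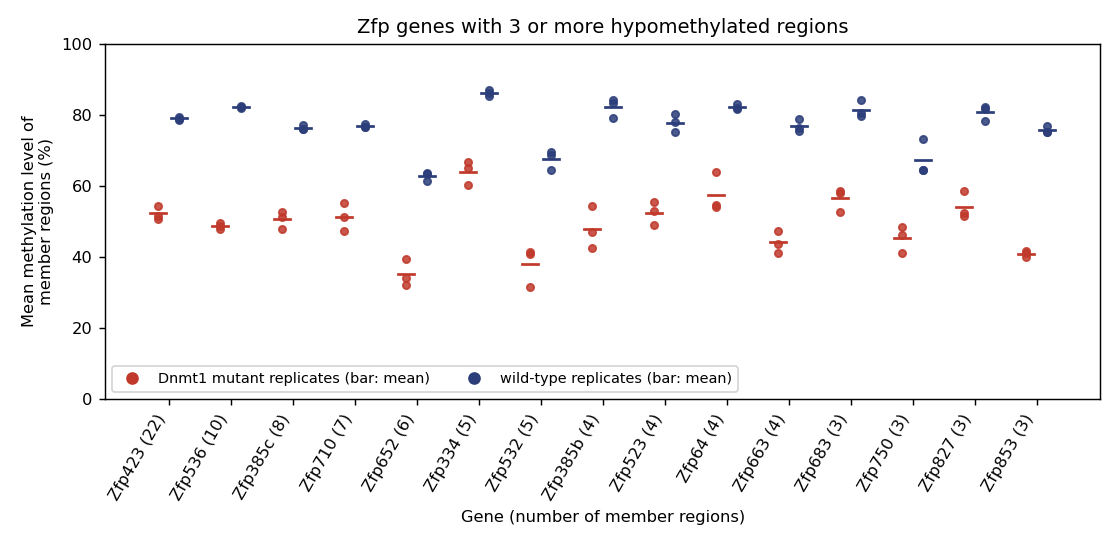
Mean methylation level (%) over the member regions of each of the 15 genes with 3 or more, for the 3 Dnmt1 mutant columns (red, left) and the 3 wild-type columns (blue, right) of each gene, with a bar at the mean. The mutant means run between 35.3% at Zfp652 and 63.96% at Zfp334, each below the wild-type mean of its gene.

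These 15 genes held 91 of the 166 regions, whereas 19 genes had 2 and 37 had 1. Among them Zfp334 had the highest mutant level, 63.96% ± 3.38 against 86.2% ± 0.768 in wild-type cells (SD, n = 3 a group), over 5 regions. Zfp853 had 3 regions with 40.1%, 41.2% and 41.6% in mutant cells and 76.9%, 75.1% and 75.3% in wild-type cells, the largest median difference of the 15, -34.1 points. Zfp750, a factor of epidermal differentiation, had the smallest, -21.1 points. Across the 70 genes in the RefSeq table, Spearman's rho between gene length and the number of member regions was 0.39, given as a description. Among member regions, 16 were listed under another gene as well, 14 genes in all.

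The repeat and imprint silencing KRAB list of 10 genes, 9 of them found in RefSeq by symbol, had 2 with member regions, Zfp819 (above) and Zfp961. Of the 415 Zfp genes in RefSeq, 70 had a member region. The Zfp961 region had 52.4%, 49.9% and 56.9% in mutant cells and 84.3%, 86.4% and 83.4% in wild-type cells. Its middle lay 22455 bp beyond the RefSeq gene end. Zfp57 and Zfp445, which keep imprints methylated, had none. The 1 candidate region of Zfp57 was called lower by limma and neither of the 2 of Zfp445 was, against 93.5% of all candidate regions. Of the Zfp36 genes, whose proteins speed the decay of messenger RNA, 0 of 4 had a member region, and 3 of the 4 had a candidate region called lower, a call that 93.5% of all candidate regions had. The pluripotency and germ cell list, with 7 of its 8 genes found in RefSeq by symbol, had 0 of 8, and 3 of the 8 had a candidate region near them. Of these, Zfp296 has a region beside it listed under Gemin7, with 39.7% ± 9.11 in mutant cells and 76.8% ± 5.81 in wild-type cells (SD, n = 3 a group). Zfp541, a male germ cell gene of the same list, has a listed region of 33 CpGs at a distance of -9936 bp (upstream) in the authors' list, beyond the limit. It had 12.6% ± 1.78 in mutant cells and 75.1% ± 3.79 in wild-type cells (SD, n = 3 a group).

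The partners of KRAB silencing, which are no zinc finger genes of this kind, had regions listed under their own symbol within 5 kb at 6 of 22 genes, 15 regions with a median difference of -23.6 points. These were Chd3, Chd4, Uhrf1, Dnmt1, Dnmt3a and Ehmt2. The largest loss among them was at Dnmt3a, a methyltransferase that sets new methylation, with 21.7% ± 2.50 in mutant cells and 60.03% ± 1.75 in wild-type cells (SD, n = 3 a group). Trim28 and Setdb1 had none, and 3 of 4 and 1 of 2 of their candidate regions were called lower by limma, against 93.5% of all candidate regions. Of 12 genes of mature lineage markers, 11 of them found in RefSeq by symbol, 3 had a listed region (Cd8a, Cd4 and Itgax). Of 4 stromal markers, all 4 did. The share of all genes with a listed region was not computed, so no contrast is read from the partner and marker counts. These counts show where methylation was lower and say nothing of the cells present, whose part in the levels was not tested.

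Candidate regions near any Zfp gene, listed or not, give the setting of the members. The RefSeq table has 415 Zfp genes without Zfp469, and 233 of them (56.1%) had a candidate region in their span or within 5 kb, 1081 regions in all. The authors listed 223 of these as hypomethylated (20.6%), against 33.1% of all candidate regions, and 0 as hypermethylated. By limma 918 (84.9%) were lower, against 93.5% of all, 2 (0.185%) higher, against 0.0485%, and 161 neither. The median difference was -13.5 points near Zfp genes and -16.6 over all candidate regions, and the median wild-type level 89.2% and 86.7%.

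Zfp candidate regions were more often at the top of the scale. They were also somewhat more often at the bottom, with 7.59% under 20% in wild-type cells, against 5.76% of all candidate regions. A wild-type level of 90% or more was found in 46.3% of them, against 32.8% of all candidate regions, and in that class the median difference was -10.5 points near Zfp genes and -12.7 over all. Between 80% and 90% it was -17.5 near Zfp genes and -18.6 over all, and between 50% and 80% it was -23.8 near Zfp genes and -25.3 over all. Between 20% and 50%, where 39 candidate regions lay near Zfp genes, it was -12.8 near Zfp genes and -18.5 over all. The Zfp regions thus had a smaller median loss at these levels, with the widest gap between 20% and 50%. Genes with 3 or more other Zfp genes within 1 Mb, 229 of the 415, had 56.2% of their 356 candidate regions at 90% or more, with a median difference of -8.72 points there. Of these clustered genes 25 (10.9%) had a member region, against 45 (24.2%) of the 186 others. Fewer clustered genes had any candidate region near them, 48.9% against 65.1%, and their median length was 16.1 kb, against 19.5 kb. The share of candidate regions listed was 15.7% near clustered genes and 23.0% near the others. Whether these shares differ beyond chance was not tested.

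**Figure D4:**
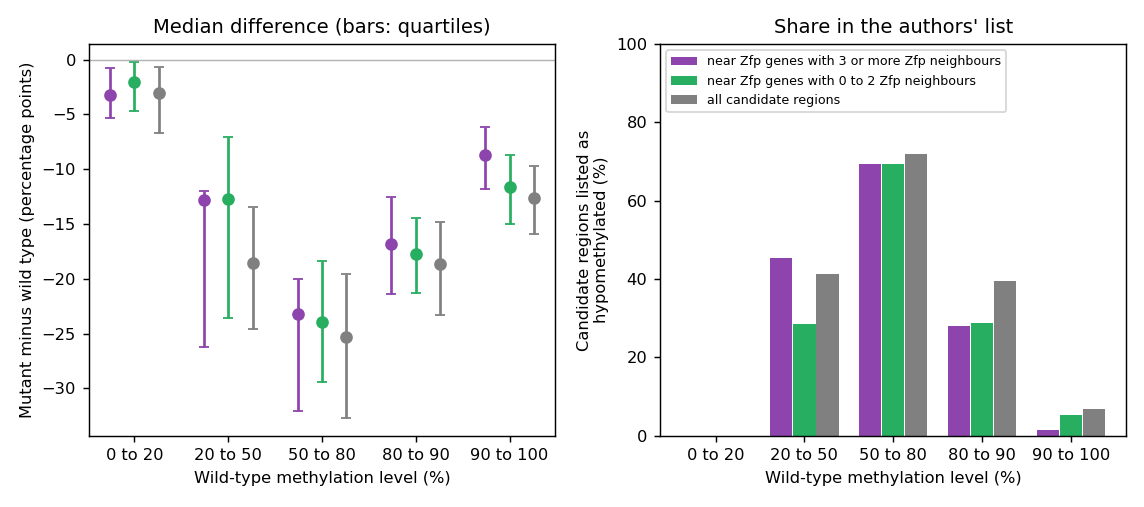
Candidate regions by wild-type methylation level (%), near Zfp genes with 3 or more Zfp neighbours within 1 Mb (purple), near other Zfp genes (green) and over all candidate regions (grey). Left, the median of mutant minus wild type in percentage points with quartile bars; right, the share of regions in the authors' hypomethylated list (%), which at 90% or more was 1.5% near clustered genes, 5.32% near the other Zfp genes and 6.80% over all.

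By chromosome, 16 member genes with 35 regions lay on chromosome 7, which has 94 Zfp genes, and 6 genes with 30 regions on chromosome 8, 22 of them of Zfp423. Chromosomes 13 and 17 have 39 and 47 Zfp genes, of which 2 and 3 had a member region. Chromosomes 10, 19 and X had none. The Zfp genes of chromosomes 19 and X had no candidate region near them by RefSeq positions, and those of chromosome 10 had 3. With at most 1 Mb between successive gene starts, 3 runs of 3 or more member genes were found. The longest, on chromosome 7, held Zfp180, Zfp112, Zfp93, Zfp428, Zfp574 and Zfp526 with 8 regions, at 58.8% ± 3.58 in mutant cells and 84.4% ± 1.28 in wild-type cells (SD, n = 3 a group), and 14 Zfp genes lie in its span. With at most 500 kb between starts, this run shrank to Zfp180, Zfp112, Zfp93 and Zfp428 with 5 regions, and the other runs stayed the same. Zfp936, Zfp658 and Zfp819, also on chromosome 7, had 5 regions at 37.5% ± 2.51 in mutant cells and 62.4% ± 1.25 in wild-type cells (SD, n = 3 a group). On chromosome 2, Zfp335os, Zfp663 and Zfp334 had 10 regions at 55.3% ± 3.07 in mutant cells and 81.96% ± 0.676 in wild-type cells (SD, n = 3 a group).

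A member gene could hold regions that did not follow the loss. At Zfp334, 5 of 9 candidate regions were members, while another (chromosome 2, 165381159 to 165381440) had 93.4%, 95.0% and 92.8% in mutant cells and 94.2%, 90.8% and 97.2% in wild-type cells. The columns of the genotypes were interleaved there. Zfp853 and Zfp316, neighbours on chromosome 5 chosen for description after their values were seen, had 33 candidate regions between them. Of these 5 were members, limma called 19 lower, against 93.5% of all candidate regions, and 1 higher, against 0.0485%, and 5 had a higher mean in mutant cells. The median wild-type level was 65.7% at this locus and 86.7% over all, and many of its regions were under 20%. In that class 32.7% of all candidate regions were called lower, so the count at the locus cannot be set directly against the 93.5%. The region called higher (143254421 to 143254955, Zfp316) had 37.2%, 61.4% and 54.1% in mutant cells and 29.6%, 37.1% and 35.6% in wild-type cells. The difference was 16.8 points (limma adjusted p = 0.0168), and the lowest mutant column was barely above the highest wild-type column. It lay less than 2 kb from a Zfp316 member region (143252228 to 143253091) with 39.0%, 49.0% and 45.5% in mutant cells and 62.4%, 64.6% and 70.0% in wild-type cells.

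**Figure D5:**
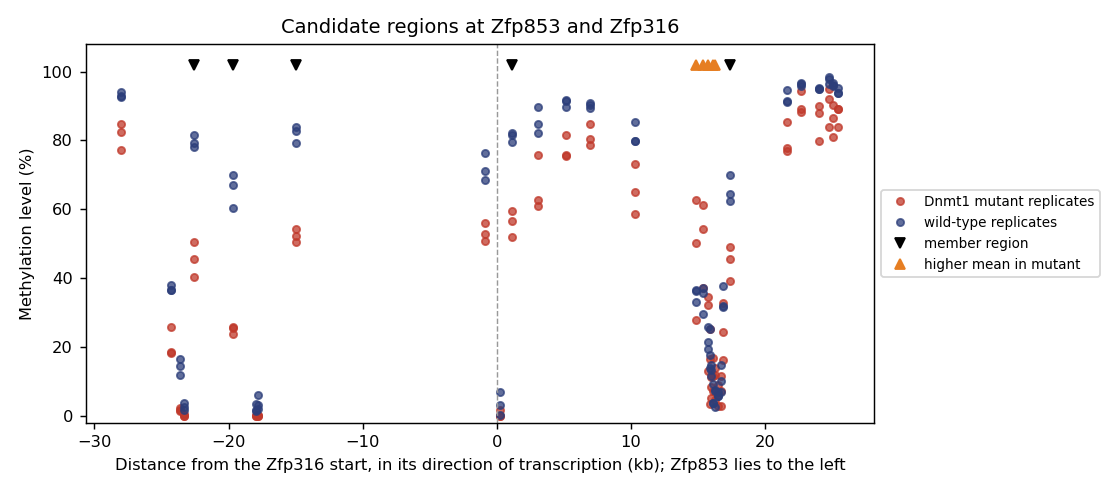
Methylation level (%) of the 33 candidate regions at Zfp853 and Zfp316 by distance from the Zfp316 gene start (kb), for the 3 Dnmt1 mutant columns (red) and the 3 wild-type columns (blue). Black triangles mark the 5 member regions and orange triangles the 5 regions with a higher mean in mutant cells, which stand close together at the right.

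The other candidate region called higher lay at Zfp503 (chromosome 14, 21985317 to 21985640), a factor of the developing striatum with no member region. Its level was 19.6%, 37.5% and 42.0% in mutant cells and 8.78%, 11.6% and 29.5% in wild-type cells. The difference was 16.4 points (limma adjusted p = 0.0426) and the groups overlapped, with wild-type replicate 3 above mutant replicate 1. The Zfp316 call was lost in 3 of 9 alternatives, each of them leaving out a column: limma's adjusted p was 0.0591 without mutant replicate 2, 0.0556 without mutant replicate 3 and 0.0679 without wild-type replicate 1. Over its 9 alternatives it was 0.000506 to 0.0679. The Zfp503 call was lost in 5 of 9, with a limma adjusted p of 0.0575 on a logit scale, 0.124 without mutant replicate 2, 0.151 without mutant replicate 3, 0.156 without wild-type replicate 1 and 0.135 without wild-type replicate 2. Over its 9 alternatives it was 0.00218 to 0.156. The fit with a replicate block kept both calls.

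Listed regions near a Zfp gene of RefSeq were not all members. Of the 223, 156 were members and 67, near 39 Zfp genes, were not, because the authors' list gives them another gene's symbol or, in 2 regions at Zfp541, a larger distance. Their median difference was -27.8 points. They include a region near Zfp867 listed under Gm12263, with 16.3% ± 7.11 in mutant cells and 74.4% ± 6.39 in wild-type cells, and a region near Zfp385a listed under Gpr84, with 29.7% ± 5.37 in mutant cells and 79.9% ± 1.02 in wild-type cells (SD, n = 3 a group). A region near Zfp36l2 listed under Thada had 23.9% ± 7.61 in mutant cells and 74.3% ± 5.60 in wild-type cells (SD, n = 3 a group). The symbol rule therefore counts the gene that the authors assigned, not every Zfp gene nearby.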

How the data were processed

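The aligner, the methylation caller and any merging of both kits in 1 column were not given in the sources used here. In the submitters' processing notes, mm10 is named as genome build. As values, the authors deposited the methylation level of every candidate region as a fraction in 6 columns, here multiplied to percent. In their deposited lists, called with metilene per the file names, they give the count of CpGs, mean fractions, a difference of means (a score), a metilene q-value and a further adjusted p-value. No read counts accompany the levels, so depth is unknown and counting error cannot be stated. The smallest listed difference was 20 points and the fewest CpGs 10.

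The members and gene lists were chosen with earlier results of these data known. All candidate regions were tested with limma 3.58.1 (R 4.3.3), mutant against wild type, on percent levels, and p-values were adjusted by Benjamini-Hochberg over all regions, with a threshold of 0.05. Candidate regions were chosen by the authors on the same samples, so calls are counts to be read against the share over all regions. The script for limma was tested on simulated data. Column names in the labels gave the genotype. Named regions were the 10 largest losses, the 5 with the most CpGs, those at promoter windows, the 5 widest mutant ranges, the 5 smallest losses, the 5 candidates just outside the limit, the largest of each role list gene and genes with 3 or more regions; of the role lists, part are given as counts. Zfp853 with Zfp316, Zfp541, Zfp683, Zfp366, Zfp687, Zfp473 and the regions under other symbols were named after their values were seen. Gene positions and promoter sequences are RefSeq's (GRCm38.p6); 70 of the 71 genes matched. Tested on those sequences, the first C of a region lies at the deposited start plus 2 and the last C at the end plus 1, counting from 1; positions are printed as deposited. Protein sequences were not used here, so the planned protein features were not analysed.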

Additional observations from a re-analysis of the deposited data

How the results depend on the processing

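The members were selected for a loss of at least 20 points on the same columns, so the direction of their median difference is fixed by the selection, and only its size is given. The median was -24.9 points with the authors' deposited group means, -25.07 with a 1 kb limit, -25.1 without Zfp423, -25.4 with 1 value for each gene, and -27.05 to -23.7 with 1 column left out. With a metilene q under 0.05 it was -33.3 points and the number of members fell to 36. Requiring at least 15 CpGs left 44 members, and 1 region for each gene left 71. The last alternatives, 1 value or region for each gene and leaving out Zfp423, were chosen after seeing the data.

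Of the candidate regions near Zfp genes, limma called 980 lower on a logit scale, 970 with a trend on the mean level and 842 to 921 with 1 column left out, against 918; asking also for 20 points left 229. The fit with the replicate number as a block called 908. The correlations of deviations between mutant and wild-type columns of equal replicate number were 0.0372, 0.0049 and 0.05. Between unequal numbers they ran from -0.0507 to 0.0117. All are small, and they cannot decide whether equal numbers mark paired samples. The count of listed regions near Zfp genes was 166 (18.5%) within the gene span alone and 301 (22.8%) with 10 kb on each side. The 10 largest losses ranged from -63.8 to -40.2 points over 70 alternative values, and their sign is fixed by the selection too. Of these 10 regions, 7 stayed among the 10 largest without mutant replicate 2, and 9 or 10 in the other settings. Depth is unknown, so small differences between columns cannot be set against counting error.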
